A study of Mus musculus with 2 samples.

Results

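A group of 8 transcription factor genes tied to the IL-17-producing programme of gamma/delta T cells was examined, Sox13, Sox4, Sox5, Maf, Rora, Zbtb16, Etv5 and Bhlhe40. The members were every probe set whose single gene symbol in the platform annotation was one of these 8 names, which gave 38 probe sets of 34945 with a single symbol, and 8 genes of 18193. The study measured 1 preparation of gamma/delta T cells, titled as naive and CD44-negative, and 1 of CD8+ alpha/beta T cells, titled as naive. C57BL/6 lymph nodes were the source of both preparations, each obtained by negative selection, and the labels do not give the number of mice or their age. Each was hybridised to 1 Affymetrix MOE430 2.0 array, a 1-colour array that reads a gene through 1 or more probe sets of short oligonucleotides. The series title concerns how the kinase Blk bears on gamma/delta cells that release IL-17.

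IL-17-producing gamma/delta T cells are programmed largely in the thymus and leave it ready to release the cytokine within hours of stimulation. In the mouse, the HMG-box factors Sox13 and Sox4 and the bZIP factor c-Maf promote this programme, and RORalpha is a nuclear receptor of IL-17-producing T cells. PLZF, encoded by Zbtb16, marks innate-like T cells, among them NKT cells and some gamma/delta subsets.

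Upstream DNA is shown for 3 Sox genes, because Sox13 and Sox4 were higher in gamma/delta cells while Sox5, a close relative of Sox13, was not. The sequences come from RefSeq on build GRCm38.p6, run 5′ to 3′ along the gene's strand and hold the 250 bases before the annotated start. The array values themselves carry no genome build. Capitals mark any match to 4 short motifs searched on both strands: CACGTG (the E-box bound by Bhlhe40), AGGTCA (the core bound by ROR receptors), ACAAT (a Sox core) and TGCTGA (part of the Maf element).
Sox13, chr1:133424213-133424462, minus strand: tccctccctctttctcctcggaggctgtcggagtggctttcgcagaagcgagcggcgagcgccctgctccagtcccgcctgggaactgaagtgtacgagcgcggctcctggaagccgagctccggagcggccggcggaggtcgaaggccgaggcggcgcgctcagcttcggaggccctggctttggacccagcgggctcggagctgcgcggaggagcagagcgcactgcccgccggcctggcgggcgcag
Sox4, chr13:28953700-28953949, minus strand: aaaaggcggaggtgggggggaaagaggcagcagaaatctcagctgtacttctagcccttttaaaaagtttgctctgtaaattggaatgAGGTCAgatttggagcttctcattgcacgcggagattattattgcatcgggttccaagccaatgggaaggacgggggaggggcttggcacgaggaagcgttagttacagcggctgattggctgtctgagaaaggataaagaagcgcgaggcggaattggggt
Sox5, chr6:143947107-143947356, minus strand: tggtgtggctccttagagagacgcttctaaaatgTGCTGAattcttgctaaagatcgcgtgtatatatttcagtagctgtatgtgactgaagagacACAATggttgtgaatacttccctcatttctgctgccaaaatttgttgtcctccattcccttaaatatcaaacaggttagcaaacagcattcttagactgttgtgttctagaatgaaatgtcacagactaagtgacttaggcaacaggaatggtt
Sox4 held 1 AGGTCA and no other match, Sox5 held 1 ACAAT and 1 TGCTGA, and Sox13 held none. Among all 32851 upstream sequences of the table, 14.0% held AGGTCA, 27.7% ACAAT, 16.1% TGCTGA and 6.02% CACGTG. The G and C content was 72.4% for Sox13, 50.8% for Sox4 and 39.6% for Sox5, against a median of 52.4% over the table. Sequences were matched for 5 of the 8 genes, and those of Rora and Etv5 held none of the 4 motifs. A match describes the letters only.

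The deposited values are linear MAS5 signals, and the trimmed mean was 500.003 on each array. The floor was set at the median signal of 243.3, the higher of both arrays' medians. A signal under the floor was raised to it before taking log2 of gamma/delta over alpha/beta, so a probe set under it on 1 array gives only a bound (at least N-fold). A probe set under it on both arrays has no ratio. Each group has 1 array, hence no replicate error and no test, and a gene was called at 2-fold or more. Probe sets of one gene give the only spread, a pooled SD of 0.50 on the log2 scale over 3317 genes. They share both RNA preparations and are not replicates.

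The gamma chain and CD8 genes matched the labels. Trgv4 and Trgv1, gamma chain segments, were higher in gamma/delta cells by at least 51.5-fold and 38.8-fold, and Cd8a and Cd8b1 were lower there, by 12.1-fold and 5.74-fold. Tcra, an alpha chain gene with 1 probe set here, was not called, at 379.0 in gamma/delta cells against 170.3, under the floor, in alpha/beta cells. Of 4 measured pan T cell genes 2, Cd3g and Thy1, were called, both higher in gamma/delta cells. Of 5 measured NK cell markers 2 had a ratio, and only Gzma was called, higher in gamma/delta cells. The summed signal of the 5 was 2012 in gamma/delta cells against 589.4 in alpha/beta cells. Gzma alone gave 1442 and 73.4 of these sums, so most of their difference is that gene and not the marker set. Neither array read Ncr1 or Tyrobp above the floor. A ratio existed for 2 of 5 B cell, 3 of 6 myeloid and 4 of 5 stromal markers, and none was called. All 3 CD4 T cell markers fell short of the floor in both preparations, so no call was possible for them. Summed signals, gamma/delta against alpha/beta, were 1406 against 1214 (B cell), 1128 against 1061 (myeloid) and 2198 against 2449 (stromal). The CD4 sums, 192.2 against 420.1, hold only signals below the floor, so no difference is read there. Of 3 innate lymphoid markers Il7r alone was called, lower in gamma/delta cells, and the sums were 14761 in gamma/delta cells against 40249 in alpha/beta cells. Il7r alone gave 13879 and 39479 of these sums, so they describe that gene and not the marker set. The part of other cells in the values below was not tested. The ratio of 3′ to 5′ signal of actin, a measure of RNA integrity, was 6.99 for gamma/delta and 3.12 for alpha/beta cells, and that of Gapdh was 3.06 and 3.24. A bulk signal cannot tell fewer expressing cells from less RNA per cell.

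Maf, Sox13, Sox4 and Bhlhe40 were higher in gamma/delta cells by 2-fold or more, and Rora, Zbtb16, Etv5 and Sox5 were not called in either direction. Each gene is read here by the probe set whose log2 signal, averaged over both arrays, was highest. Of the 8 genes, 4 were called higher and 0 lower, where 5.82% of all 11914 genes with a ratio were called higher and 3.93% lower. Counted as probe sets, 18 of the 38 had a ratio, 6 of these were called higher and 0 lower, against 5.2% and 4.37% of all 20297 probe sets with a ratio. The 8 genes were grouped with earlier results of these arrays known, so the counts describe them and carry no further weight. The median log2 ratio over the 8 genes was 0.75, with bounds taken at their value, and 0.03 over all genes with a ratio. Only 4 of the 8, Sox4, Maf, Rora and Etv5, lay above the floor on both arrays. The other 4 reached it on 1 array alone, which fixes the sign of their ratio.

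**Figure D1:**
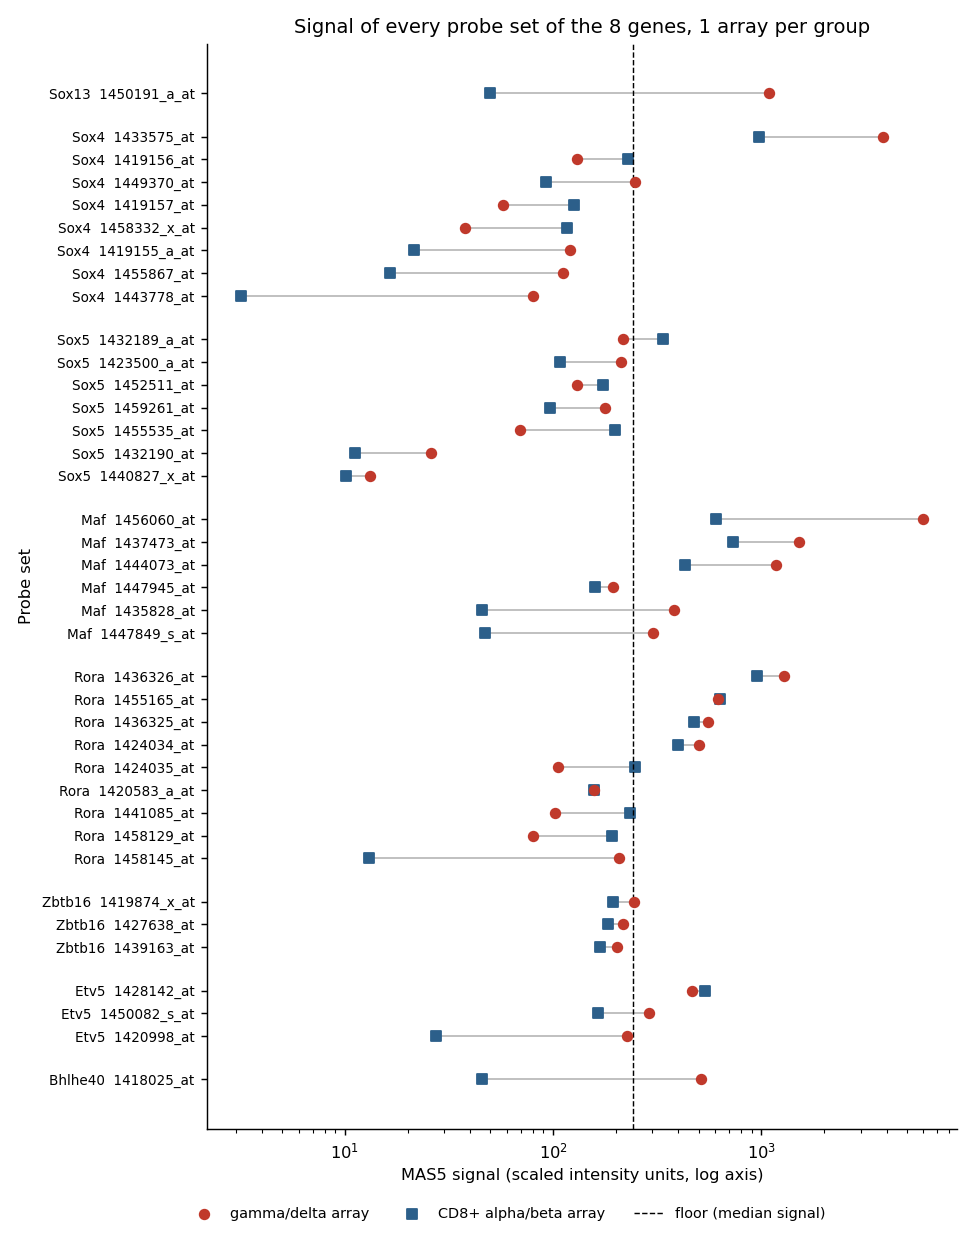
MAS5 signal (scaled intensity units, log axis) of each of the 38 probe sets on the gamma/delta array (circles) and the CD8+ alpha/beta array (squares), grouped by gene and ordered by mean log2 signal, with the floor of 243.3 as a dashed line. Points of Maf at the top of its group lie far apart, with 6010 against 609.3, while the brighter points of Rora nearly coincide and those of Zbtb16 cluster at or just under the floor.

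Maf, which encodes the bZIP factor c-Maf that gamma/delta cells need in order to make IL-17 in the mouse, had the largest ratio of the 8 with bounds taken at their value. Its probe set 1456060_at read 6010 in gamma/delta cells, against 609.3 in alpha/beta cells, a 9.86-fold difference (log2 ratio 3.30). Both signals were above the floor, so Maf transcript was read in both preparations. Among all genes with a ratio, Maf ranked 19th from the highest.

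Another 2 probe sets of Maf were above the floor in both preparations and had smaller ratios in the same direction. Probe set 1444073_at had signals of 1177 in gamma/delta cells against 428.5 in alpha/beta cells (2.75-fold), and 1437473_at had 1521 and 736.0 (2.07-fold). Probe sets 1435828_at and 1447849_s_at fell short of the floor in alpha/beta cells alone, with 381.3 against 45.4 and 303.0 against 46.9, and gave bounds of at least 1.57-fold and at least 1.24-fold. The last, 1447945_at, lay under the floor on both arrays, at 193.5 and 159.3. The 3 that cleared the floor in both preparations were thus each called higher in gamma/delta cells, with an SD of 1.20 on the log2 scale, wider than the pooled SD, while the floor fixes the sign of the 2 bounds. Because the probe sets disagree in size, the 9.86-fold value depends on the probe set. Averaging all 6 gave 788.6 in gamma/delta cells against 200.6 in alpha/beta cells, under the floor, and so a log2 bound of at least 1.70.

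Sox13, an HMG-box factor that marks the gamma/delta lineage early in the mouse thymus, had 1 probe set, 1450191_a_at. It read 1087 in gamma/delta cells, against 49.6 in alpha/beta cells, which is under the floor, so gamma/delta cells were higher by at least 4.47-fold (a log2 bound of 2.16). The gamma/delta signal was well clear of the floor, while no alpha/beta level can be given. With the bound taken at its value, Sox13 ranked 66th of the 11914 genes. No second probe set checks it, and the ending _a_at marks a probe set shared by several transcripts of the gene.

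Sox4, an HMG-box factor of lymphocyte precursors that also promotes the IL-17 programme of gamma/delta cells in the mouse, read 3862 in gamma/delta cells, against 978.2 in alpha/beta cells, by probe set 1433575_at. The difference was 3.95-fold (log2 ratio 1.98), and the gene ranked 85th. Both preparations lay above the floor, as for Maf. This call rests on 1 of 8 probe sets. Probe set 1449370_at reached the floor in gamma/delta cells alone, at 247.3 against 92.6, and was at least 1.02-fold higher. The other 6 lay under the floor on both arrays, at 37.6 to 130.8 in gamma/delta cells against 3.19 to 230.3 in alpha/beta cells, and the gamma/delta signal was the higher in 3 of them. Averaging the probe sets put Sox4 under the floor in both preparations and left no ratio.

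Sox5, which belongs with Sox13 to the SoxD group, did not show the pattern of the other 2 Sox genes. Its probe set 1432189_a_at read 217.9 in gamma/delta cells, under the floor, and 337.8 in alpha/beta cells, which puts gamma/delta cells at least 1.39-fold lower (log2 ratio of at most -0.47). The other 6 probe sets lay under the floor on both arrays, at 13.2 to 211.4 in gamma/delta cells against 10.2 to 199.2 in alpha/beta cells, with the gamma/delta signal higher in 4. No level of Sox5 was therefore measured in gamma/delta cells by any of its 7 probe sets.

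**Figure D2:**
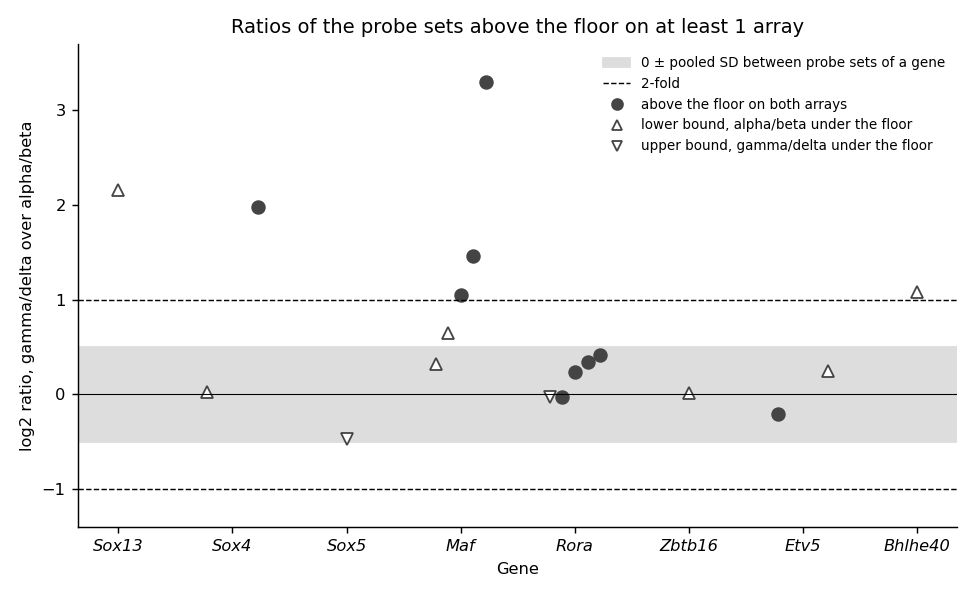
Log2 ratio of the gamma/delta over the alpha/beta signal for the 18 probe sets with a ratio, by gene; filled circles were above the floor on both arrays and open triangles are bounds, the grey band is 0 ± the pooled SD of 0.50 and dashed lines mark 2-fold. The 3 filled circles of Maf spread from 1.05 to 3.30, and the 5 symbols of Rora stay between -0.03 and 0.42.

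Rora, which encodes the nuclear receptor RORalpha, had similar signals in both preparations by its brighter probe sets. Probe set 1436326_at had signals of 1282 in gamma/delta cells against 959.0 in alpha/beta cells, a log2 ratio of 0.42, and the probe sets 1424034_at (502.9 and 398.0) and 1436325_at (556.3 and 473.5) gave 0.34 and 0.23. Probe set 1455165_at, at 622.1 and 634.1, gave -0.03. These 4 probe sets had an SD of 0.19, and each ratio was smaller than the pooled SD between probe sets of a gene. Probe set 1424035_at reached the floor in alpha/beta cells alone, at 105.5 against 248.3. The other 4 stayed under the floor in both preparations, at 79.9 to 208.5 in gamma/delta cells against 13.1 to 235.2 in alpha/beta cells, with the gamma/delta signal higher in 2. Among all genes with a ratio, 75.1% had a lower one than Rora.

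Zbtb16, which encodes PLZF, was at or under the floor throughout. Its probe set 1419874_x_at read 245.7 in gamma/delta cells, barely above the floor, and 194.6 in alpha/beta cells, under it. Probe sets 1427638_at (217.4 and 182.7) and 1439163_at (203.8 and 168.0) lay under it on both arrays. The gamma/delta signal was the higher in each of the 3, but no difference can be given at these signals.

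Etv5, an ETS factor of the PEA3 group that is induced by Ras and MAP kinase signals, was not called by any probe set with a ratio. Probe set 1428142_at had 464.2 in gamma/delta cells against 537.6 in alpha/beta cells (log2 ratio -0.21), and 1450082_s_at had 287.7 and 163.7, the alpha/beta value under the floor, for a bound of at least 0.24. Probe set 1420998_at read 227.4 and 27.3, under the floor on both arrays. Only 1 of the 3 was therefore measured in both preparations, and averaging them put alpha/beta cells under the floor, with a log2 bound of at least 0.36 that rests on these weak signals.

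Bhlhe40, a basic helix-loop-helix repressor that T cells use in cytokine production, was read by 1 probe set, 1418025_at. It read 513.5 in gamma/delta cells, against 45.8 in alpha/beta cells, under the floor, which gave a bound of at least 2.11-fold (log2 ratio of at least 1.08, rank 564). The bound lies just past the 2-fold call. With the floor at the 70th percentile it was 0.20 on the log2 scale and the call was lost, whereas the bound of Sox13 was 1.28 there and kept its call.

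Near the 2-fold threshold, among the members' probe sets, 1437473_at of Maf (log2 ratio 1.05) and Bhlhe40 (at least 1.08) lay just inside. Probe set 1435828_at of Maf was not called, but its bound of at least 0.65 does not place it on either side of 2-fold. The share of genes called depends on signal. When genes with a ratio were put into 3 classes of equal size by mean signal, the dim class ran up to a signal of 339.3. In it, 2.67% were called higher in gamma/delta cells and 1.46% lower, and this class held Sox13, Bhlhe40, Zbtb16 and Sox5. In the middle class, which held Etv5, the shares were 8.29% and 4.26%. In the bright class, with a mean signal above 819.7, which held Maf, Sox4 and Rora, they were 6.5% and 6.07%.

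**Figure D3:**
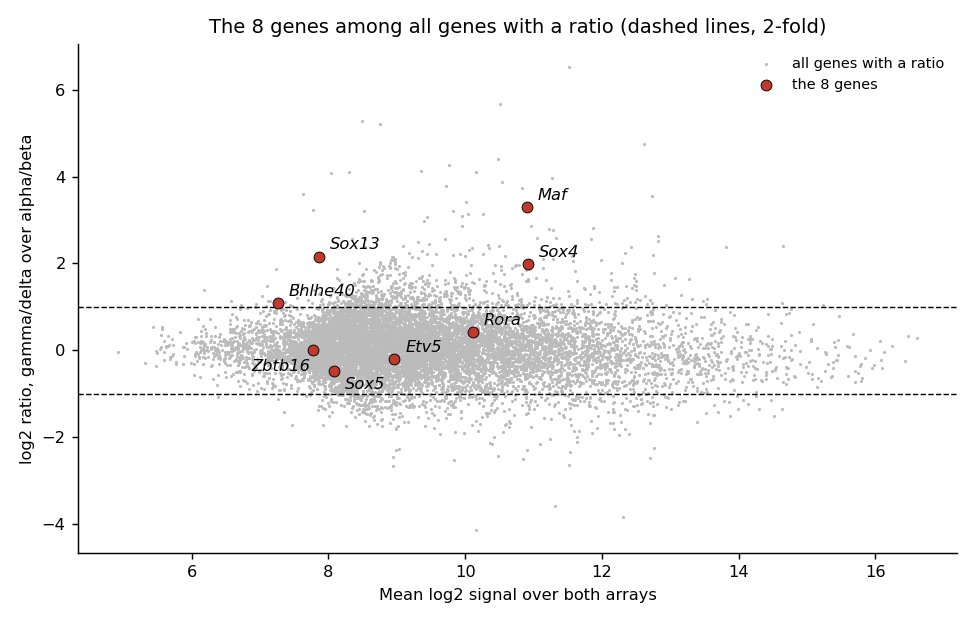
Log2 ratio of the gamma/delta over the alpha/beta signal against the mean log2 signal of both arrays for the 11914 genes with a ratio (grey) and the 8 genes (red), each by 1 probe set chosen on mean log2 signal; dashed lines mark 2-fold. Maf, Sox13 and Sox4 stand above most genes of like signal, Bhlhe40 lies just above the 2-fold line, and the other 4 lie between the lines.

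The other regulators of gamma/delta and IL-17-producing T cells went in both directions. Of 28 measured, 25 had a ratio, with a median log2 ratio of 0.13. Of these, 3 were called higher in gamma/delta cells and 2 lower, against 5.82% and 3.93% of all genes with a ratio. Ahr, the aryl hydrocarbon receptor, which IL-17-producing cells use to make IL-22, read 680.0 in gamma/delta cells, against 212.8 in alpha/beta cells, a bound of at least 2.79-fold, although its other probe set gave -0.48 on the log2 scale. Ikzf2, which encodes Helios, had 4030 and 1756 (2.30-fold), with log2 ratios from 0.06 to 1.20 over 3 probe sets. Runx3, a factor of CD8 and innate-like T cells, had 1039 and 501.1 (2.07-fold). By the probe set chosen for each gene, the ratios of Ikzf2 and Runx3 were smaller than those of Maf, Sox13 and Sox4. This order depends on the probe set, since 1437473_at of Maf gave 2.07-fold, below the 2.30-fold of Ikzf2. With probe sets averaged none of the list was called higher.

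The 2 regulators called lower were Lef1, a partner of beta-catenin in naive T cells, at 11679 in gamma/delta cells against 27658 in alpha/beta cells (2.37-fold lower), and Zeb1, a zinc finger repressor, at 5169 and 13260 (2.57-fold lower). The 3 probe sets of Zeb1 with a ratio ran from -1.36 to 1.18, so its direction depends on the probe set. Of the brightest regulators that were not called, Bcl11b, a factor of T cell commitment, had a log2 ratio of 0.85, with probe sets from -0.52. Myb had 0.36 (probe sets from -0.20), Hif1a had 0.13 (from -0.20 to 0.94) and Nfkbiz had 0.23 (from -1.21), so probe sets of all 4 disagreed in sign. Tbx21, Batf and Zbtb7b lay under the floor on both arrays. Tcf7 was not analysed here.

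Among family relatives of the 8 genes, none was called in either direction, against 5.82% higher and 3.93% lower over all genes with a ratio. Of 29 measured relatives 16 had a ratio, with a median log2 ratio of 0.06. The small Maf proteins, which lack an activation domain, had log2 ratios of 0.68 for Mafk (871.7 in gamma/delta cells against 543.1 in alpha/beta cells) and 0.62 for Maff (396.5 and 257.9), while Mafg stayed under the floor at 217.9 and 218.6. Sox6, the remaining SoxD gene, had 280.0 and 428.3, a log2 ratio of -0.61. Sox11 and Sox12, the SoxC relatives of Sox4, had -0.41 and 0.06. The 5 probe sets of Sox11 with a ratio ran from -0.41 to 0.48, so its direction depends on the probe set. Of 16 other Sox genes measured, 8 had no signal above the floor and the 8 with a ratio had a median of -0.23. Rorb, a neuronal ROR gene, had a log2 ratio of 0.26, and the PEA3 gene Etv4 had 0.31.

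**Figure D4:**
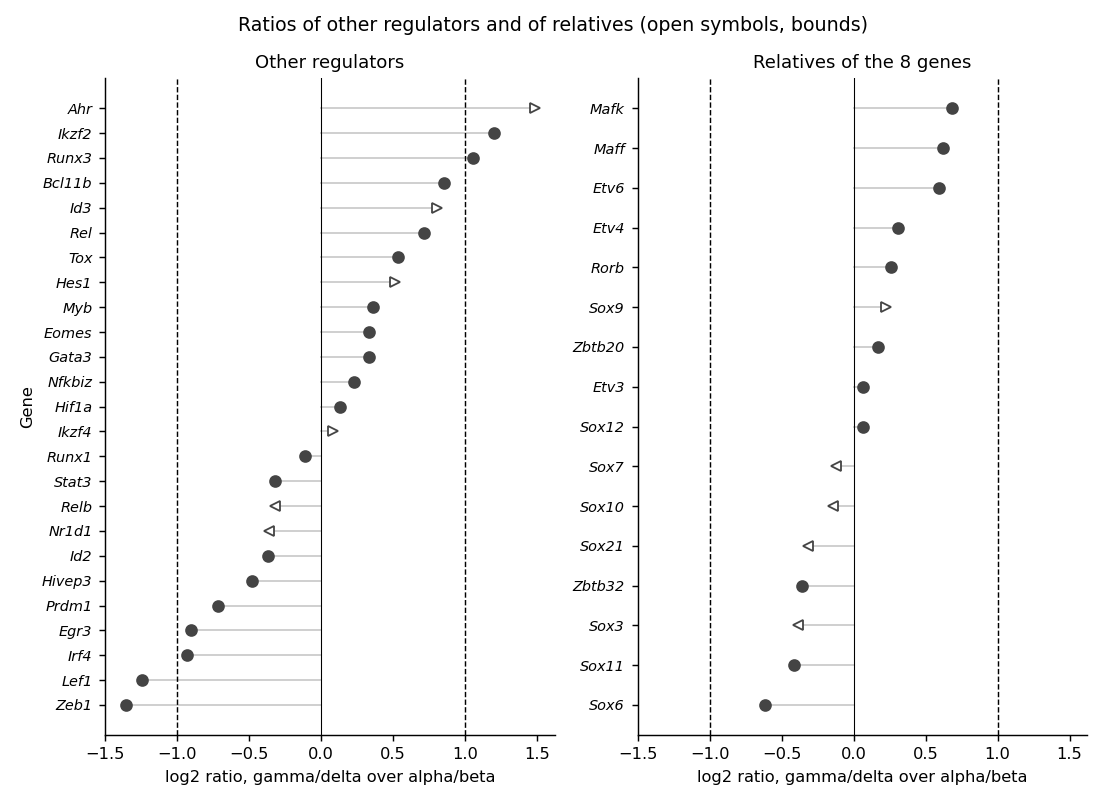
Log2 ratio of the gamma/delta over the alpha/beta signal for the 25 other regulators (left) and the 16 family relatives (right) with a ratio, each by 1 probe set chosen on mean log2 signal; open triangles are bounds and dashed lines mark 2-fold. Ahr, Ikzf2 and Runx3 lie past 2-fold on the right and Lef1 and Zeb1 on the left, while no relative lies past 2-fold.

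Of 10 measured effector genes of gamma/delta cells that make IL-17, 6 were called higher in gamma/delta cells and 1 lower. Over all genes with a ratio, the shares called were 5.82% and 3.93%. The median log2 ratio of the 10 was 1.04, with bounds taken at their value. The largest, bounds included, were Cd163l1 (at least 36.9-fold higher), 5830411N06Rik (at least 17.5-fold) and Tmem176a (3.41-fold), and the 1 called lower was Il7r, the interleukin 7 receptor (2.84-fold lower). The remaining 3 called higher were Blk, the kinase of the series title (at least 2.60-fold), Ccr6, a chemokine receptor (2.10-fold), and Il1r1, an interleukin 1 receptor (at least 2.01-fold). Il17a, the cytokine gene itself, was not called, at 521.2 in gamma/delta cells against 297.8 in alpha/beta cells, a log2 ratio of 0.81. The list was drawn up with earlier results of these arrays known and is no independent evidence of its direction. Il17f, Il22 and Il23r were not analysed here.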

How the data were processed

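RNA of 1 gamma/delta and 1 CD8+ alpha/beta T cell preparation was labelled with biotin by the 1-cycle protocol and hybridised to 1 array each, per the labels. The deposited intensity of each probe set is a linear signal. The authors used MAS5 and Affymetrix Expression Console (version 1.0) to make it, according to the submitters' processing notes. MAS5 subtracts a mismatch estimate, so weak signals carry little order. The values were used as deposited, with 45101 probe sets, of which 64 controls, 932 with several symbols and 9160 not listed in the platform annotation name no gene here.

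Ratios, the floor, the 2-fold call and the probe set used per gene are as given with the results, computed in Python 3.11.15 with pandas 2.3.3. The code was run on simulated arrays with known ratios. Changes were set there only in probe sets well above the floor and well past 2-fold. Bounds and calls near 2-fold were therefore not checked by it. Each array's median signal was 243.3 for gamma/delta and 242.1 for alpha/beta. There is 1 array per group, so no test was made, and precision is limited by the number of arrays. Alternatives were median scaling, quantile normalization, loess, floors at the 30th and 70th percentile, no floor, averaged probe sets, and leaving out probe sets whose names end in _a_at, _s_at or _x_at. Every probe set of the 8 genes is accounted for. Of the other lists, called genes are named, with up to 4 more regulators by mean signal and up to 4 genes of the IL-17 phenotype by size of ratio. Others named or given a value, such as Il17a, Blk, Ccr6, Il1r1, relatives that were not called and genes under the floor, were chosen after their values were seen. Members, lists and motifs were chosen with earlier results of these data known.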

Additional observations from a re-analysis of the deposited data

How the results depend on the processing

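The call of Maf as higher in gamma/delta cells held under all 8 alternatives. Its log2 ratios ran from 3.29 to 3.33, apart from a bound of at least 1.70 with probe sets averaged. Sox4 kept its call under 7 alternatives, with log2 ratios from 1.97 to 2.01, but each of these reread probe set 1433575_at. Averaging, the only alternative to use its other probe sets, left Sox4 under the floor in both preparations and without a call. Sox13 kept its call in 7, with bounds from 1.28 and a value of 4.45 with no floor, and had no probe set left once names ending in _a_at, _s_at or _x_at were left out. Bhlhe40 lost its call under the 70th percentile floor. Median scaling, quantile normalization and loess changed no call of the 8 genes. Members called higher fell from 4 to 3 under the 70th percentile floor, with probe sets averaged, and without names ending in _a_at, _s_at or _x_at. With no floor, 15 of the 38 probe sets were at least 2-fold higher and 6 lower in gamma/delta cells, against 6 and 0, and over all genes 2917 and 2593 were called against 693 and 468. Over all genes the counts were 1320 and 1008 under the 30th percentile floor, 396 and 284 under the 70th, and 459 and 322 with probe sets averaged. Among the relatives, 2 were called higher and 6 lower with no floor, and 2 lower under the 30th percentile floor. Of the other regulators, 4 were called lower under that floor and 5 with no floor. With probe sets averaged 0 regulators were called higher and 1 lower. A lower floor admits weaker signals by construction, and for the averaged probe sets the cause was not tested. No paired analysis was possible because each group has 1 array.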

Other observations

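Of the 20 probe sets of the 8 genes that lay under the floor on both arrays, 13 had the higher signal in gamma/delta cells, where 50.8% of all single-symbol probe sets under the floor on both arrays did. Their signals ran from 13.2 to 227.4 in gamma/delta and from 3.19 to 235.2 in alpha/beta cells. On the log2 scale with no floor, the widest gaps were in Sox4, at 80.1 against 3.19 by probe set 1443778_at, and in Rora, at 208.5 against 13.1 by 1458145_at. Values this low have no order, and no difference is read from them.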
